A study of Danio rerio with 2 samples.

Results

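Parvalbumins are small calcium-binding proteins with EF-hand loops that buffer calcium inside the cell. In fish they are best known from fast skeletal muscle, where they take up calcium after a twitch and speed relaxation. In neurons they shape calcium signals, and in mammals parvalbumin marks fast-spiking inhibitory interneurons. Zebrafish carry a family of parvalbumin genes. All 9 rows of the deposited table whose symbol is pvalb followed by a digit from 1 to 9 were taken, of 27095 genes in all, and each of the 9 had the same symbol in the current RefSeq gene table. The family was picked with the read counts of both libraries in view, so its values are a description.

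The samples were whole brains of wild-type Danio rerio, measured by RNA sequencing. Males gave 1 library and females 1, each made from the pooled brains of 5 fish, and values below are given by male and female pool or library. The labels give no age, strain or treatment. The estimated read counts summed to 62248792 for males and 64300988 for females. Neither sex was replicated, so nothing was tested and no difference below has a replicate check. The 95% intervals cover only the error of counting reads. In bulk tissue, fewer cells of a type and less RNA per cell cannot be told apart.

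Ratios are log2 of the male over the female library after scaling to a common size, so a negative value means lower in the male library. A gene was called under a rule of size, which asks for a mean of at least 1 CPM (reads scaled to a common library size), a change of 2-fold or more and a counting interval without equality. All 9 parvalbumin genes reached a mean of 1 CPM, so none was lost to the minimum. A mean can pass through 1 library alone, as for pvalb9 (0.75 CPM in the male library, 2.45 in the female library). The rule called 4 of them lower in the male library (pvalb1, pvalb2, pvalb5 and pvalb9) and 0 higher. Of 14756 measured genes, 2.70% were called lower and 1.06% higher in the male library. That is 399 and 156 genes, or 328 and 203 with the dependence of ratios on expression level removed (2.22% and 1.38%), which left 3 members lower and 0 higher. At 1.5-fold 5 members were lower and 0 higher (6.09% and 2.80% of measured genes), and at 4-fold 2 were lower and 0 higher (1.23% and 0.183%). At a minimum of 5 CPM 3 were lower and 0 higher (0.919% and 0.484% of the genes left). Since the family was chosen with these counts known, nothing is read from its share of calls.

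The paralogues known from fast muscle differed widely among themselves. They are pvalb1, pvalb2, pvalb3 and pvalb4. The farthest apart was pvalb1, which had 189 reads in the male pool and 1857 in the female pool. This is a log2 ratio of -3.20 (interval -3.43 to -2.99), or 9.22-fold lower in the male library (interval 7.95 to 10.8). The opposite end was held by pvalb4, with 2520 reads in the male pool and 2534 in the female pool. Its log2 ratio of 0.08 (interval 0.00 to 0.16) put the libraries level. The log2 ratio of pvalb1 minus that of pvalb4 was -3.29 (interval -3.51 to -3.06). These genes are neighbours on chromosome 3, and the interval leaves out how reads were divided between them.

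The other muscle paralogues lay between these ends. The gene pvalb2 had 319 reads in the male pool and 711 in the female pool, a log2 ratio of -1.07 (interval -1.26 to -0.88). The gene pvalb3 had 1369 reads in the male pool and 2598 in the female pool, a log2 ratio of -0.84 (interval -0.93 to -0.74). Both were lower in the male library. Their intervals overlap, though the log2 ratio of pvalb2 minus that of pvalb3 was -0.23 (interval -0.44 to -0.02). The genes pvalb2 and pvalb3 stand just inside and just outside the 2-fold line. They were 2.09-fold (interval 1.83 to 2.40) and 1.78-fold lower in the male library. With the expression trend removed, pvalb2 fell outside the line at a log2 ratio of -0.96.

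**Figure D1:**
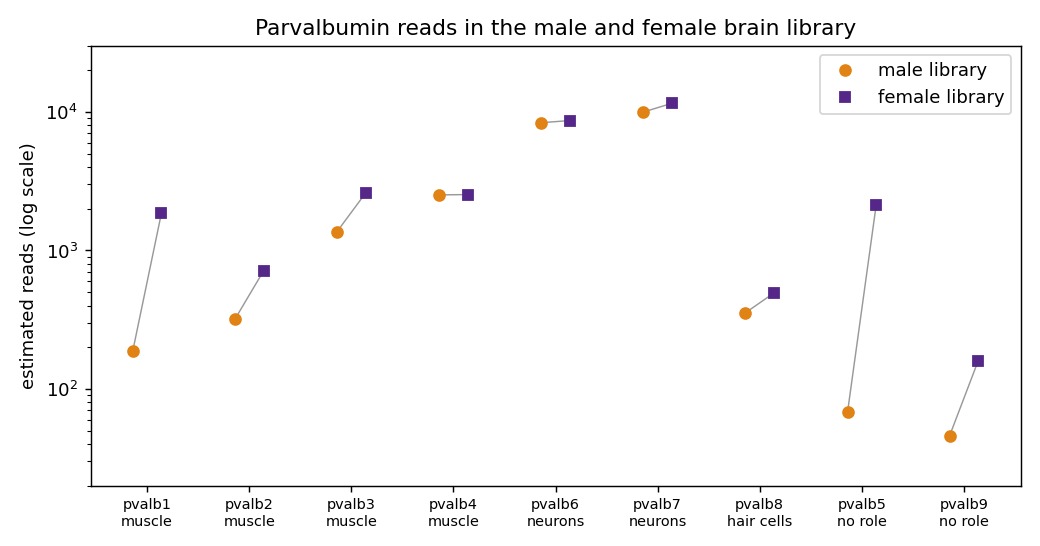
Estimated reads of each parvalbumin gene in the male library (circles, left) and the female library (squares, right), on a log axis, grouped by known role. The lines join the 2 libraries of a gene, and are close to flat for pvalb4, pvalb6 and pvalb7 and steepest for pvalb5 (68 male, 2116 female) and pvalb1 (189 male, 1857 female).

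Summed over the 4 muscle paralogues, the male library held 4397 reads and the female library 7700, a log2 ratio of -0.72 (interval -0.77 to -0.67). This sum depends on which paralogues it holds. Without pvalb1 it stood at -0.38, and without pvalb4, the muscle member with most reads, at -1.37.

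The neuronal paralogues were close to level. The gene pvalb7, best known from Purkinje cells of the cerebellum, had 9994 reads in the male pool and 11558 in the female pool. Its log2 ratio was -0.12 (interval -0.16 to -0.08), or 1.09-fold lower in the male library. The gene pvalb6, known from other brain neurons, had 8370 reads in the male pool and 8676 in the female pool. Its log2 ratio was 0.04 (interval -0.01 to 0.08), an interval that holds 0, and turned to -0.02 with the expression trend removed and to -0.01 with scaling by library totals. Neither gene came near 2-fold. Their ratios differed by 0.16 (interval 0.10 to 0.22), pvalb6 being the higher.

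Together pvalb6 and pvalb7 had 18364 reads in the male pool and 20234 in the female pool, a log2 ratio of -0.05 (interval -0.08 to -0.02). The summed log2 ratio of the muscle paralogues minus that of the neuronal pair was -0.67 (interval -0.73 to -0.61). This difference was -1.32 without pvalb4 and -0.33 without pvalb1, and pvalb4 alone matched the neuronal genes in being level. The lower muscle sum of the male library came from pvalb1, pvalb2 and pvalb3.

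**Figure D2:**
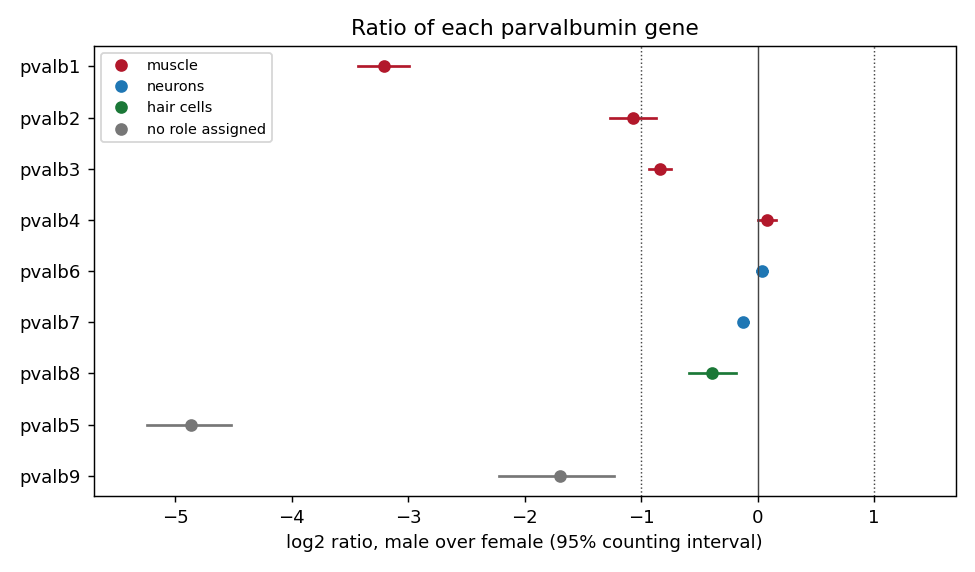
Log2 ratio of the male over the female library for each parvalbumin gene (points) with its 95% counting interval (bars), coloured by known role. Dotted lines mark 2-fold. The 3 genes pvalb4, pvalb6 and pvalb7 lie within 0.13 of 0, and the other 6 lie below, down to -4.86 for pvalb5.

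The paralogue known from sensory hair cells, pvalb8, had 355 reads in the male pool and 494 in the female pool. Its log2 ratio of -0.39 (interval -0.59 to -0.19) corresponds to 1.31-fold lower in the male library, short of the 2-fold line. RefSeq lists ocma as a synonym of pvalb8 and ocmb as one of pvalb9. In mammals oncomodulin, after which these synonyms are formed, is the parvalbumin of cochlear outer hair cells.

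No role was assigned here to pvalb5 and pvalb9. The gene pvalb5 had 68 reads in the male pool and 2116 in the female pool, the widest relative gap of the family. This is a log2 ratio of -4.86 (interval -5.24 to -4.52), or 29.1-fold lower in the male library (interval 23.0 to 37.8). Of 14756 measured genes it was the 38th from the end that is lowest in the male library. For comparison pvalb1 was the 98th, pvalb9 the 222nd and pvalb2 the 371st. The gene pvalb9 had the fewest reads, 46 in the male pool and 160 in the female pool, with a log2 ratio of -1.70 (interval -2.22 to -1.23). At a mean of 1.60 CPM it lay just above the minimum of the rule. It passed only through the female library (2.45 CPM), as its male value was 0.75 CPM.

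In order of the ratio, from lowest in the male library, the genes were pvalb5, pvalb1, pvalb9, pvalb2, pvalb3, pvalb8, pvalb7, pvalb6 and pvalb4. Neighbours in this order had intervals that do not overlap, apart from pvalb9 and pvalb2, pvalb2 and pvalb3, and pvalb6 and pvalb4. Overlap does not make ratios equal within counting error, as the log2 ratio of pvalb9 minus that of pvalb2 was -0.63 (interval -1.14 to -0.12). That interval leaves out differences between libraries and the division of reads between these genes of the same cluster. Levels of different paralogues were not ranked against each other, because transcript lengths were not used here.

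**Figure D3:**
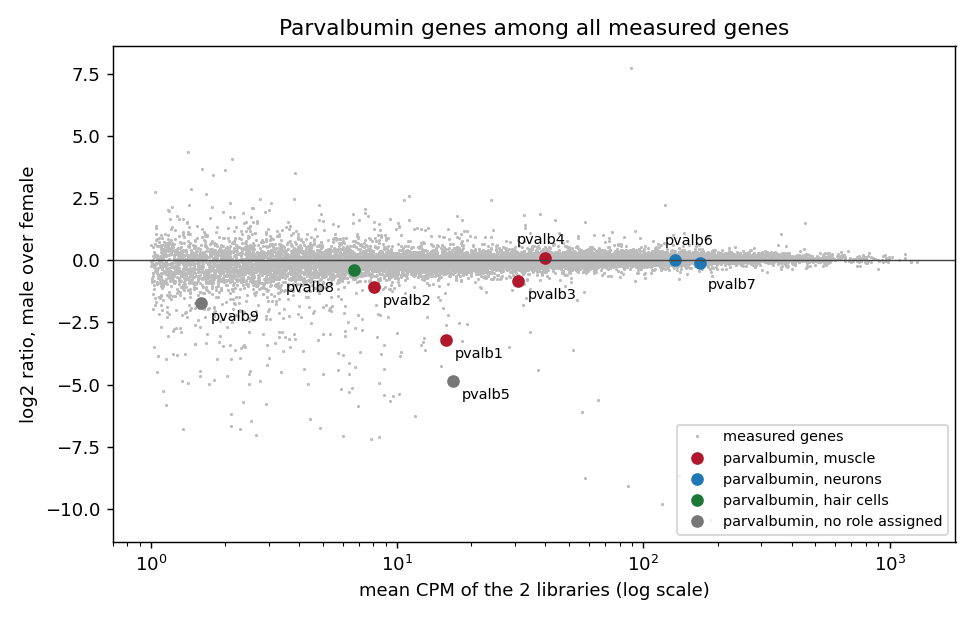
Log2 ratio of the male over the female library against mean CPM (log axis) for 14756 measured genes (grey) and the 9 parvalbumin genes (coloured by known role). The neuronal genes sit in the dense band near 0 at 135 and 170.0 mean CPM, and pvalb1 and pvalb5 lie far below the band at 15.8 and 16.8 mean CPM.

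Family reads were divided differently in each library. The 9 genes summed to 23230 reads in the male pool and 30704 in the female pool. The neuronal pair took 79.1% of the family's reads in the male pool (exact binomial interval 78.5 to 79.6) and 65.9% in the female pool (65.4 to 66.4). The muscle paralogues took 18.9% in the male pool (18.4 to 19.4) and 25.1% in the female pool (24.6 to 25.6). The genes pvalb5 and pvalb9 together took 0.491% in the male pool (0.405 to 0.589) and 7.41% in the female pool (7.12 to 7.71). These are shares of reads, not of transcripts.

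**Figure D4:**
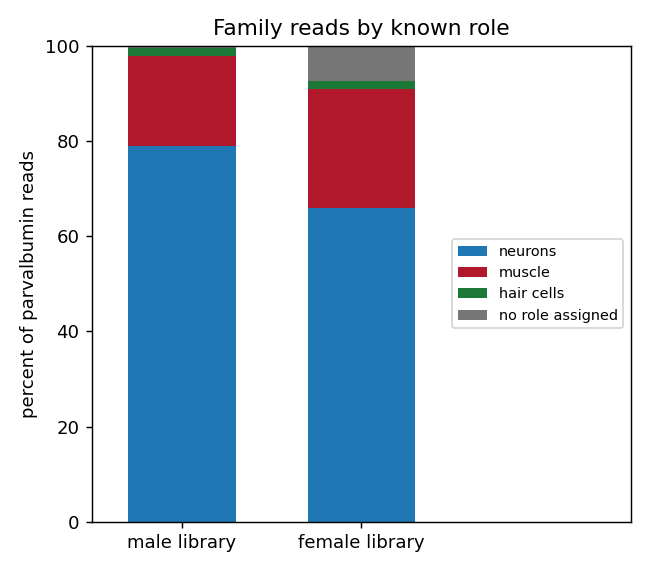
Percent of all parvalbumin reads that fell on paralogues known from neurons, muscle and hair cells and on those with no role assigned, in the male library (left bar) and the female library (right bar). The neuronal part is 79.1% of the male and 65.9% of the female bar.

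The neuronal genes lie alone in the genome and the other members in 2 clusters. In Zv9 coordinates, as the table gives them, pvalb8 (61763106 to 61771637), pvalb4 (61784965 to 61794618), pvalb1 (61802777 to 61812089) and pvalb5 (61818100 to 61827160) follow each other on the minus strand of chromosome 3, within 64055 bases. On the minus strand of chromosome 12, pvalb9 (18763656 to 18765861), pvalb3 (18772770 to 18775066) and pvalb2 (18777974 to 18780047) lie within 16392 bases. Of the neuronal genes, pvalb6 lies on the plus strand of chromosome 3 (24652365 to 24726148) and pvalb7 lies on the minus strand of chromosome 22 (31740423 to 31814074). Their spans of 73784 and 73652 bases compare with 2074 to 9654 bases for the clustered genes. The current assembly GRCz12tu holds both clusters in the same order, with 0 other protein-coding genes between the members.

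Neighbouring genes of the chromosome 3 cluster had unlike ratios. There the level pvalb4 ends 8158 bases before pvalb1, and pvalb1 ends 6010 bases before pvalb5. Of the 3 nearest measured genes on each side of that cluster, all 6 lay between -0.27 and 0.20, and the closest, LOC564666 (now lmtk2), at 3091 bases from pvalb5, had a ratio of 0.13. On chromosome 12 all 3 parvalbumin genes were lower in the male library, from -1.70 to -0.84. Among the 6 nearest measured genes there, dlgap5 was called as well, with 87 reads in the male pool and 208 in the female pool (-1.16, interval -1.55 to -0.80), and ccz1, the closest at 9772 bases, was level at -0.02. On the same side, zgc:153062 (now rsph10b) was not called but stood at -0.73 (interval -0.95 to -0.52). On the other side, bhlha15, zgc:158759 and baiap2l1a stood at 0.14, 0.08 and -0.22.

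Gene names recur among the 3 nearest measured genes on each side of these loci. A tecpr1 gene lies beside each cluster, tecpr1b on chromosome 3 (in the table as tecpr1) and tecpr1a on chromosome 12 (zgc:158759). A cbx6 gene lies beside each neuronal gene, cbx6b beside pvalb6 (LOC556231) and cbx6a beside pvalb7 (zgc:101049), and so does a pdgfb gene, pdgfbb beside pvalb6 (LOC796490) and pdgfba beside pvalb7 (si:ch211-79m20.1). The cbx6 genes were level, at -0.04 beside pvalb6 and -0.01 beside pvalb7. The pdgfb genes stood at -0.67 beside pvalb6 (interval -0.83 to -0.51) and 0.01 beside pvalb7 (interval -0.21 to 0.22). The span of pvalb7 overlaps ncf4 on the other strand, which had 221 reads in the male pool and 331 in the female pool. Since it is not known whether counting used strand, the reads of this pair cannot be fully separated. Parvalbumin paralogues are also similar to each other, and how reads that match several copies were counted is not given in the sources used here, so the division of reads within a cluster is uncertain.

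**Figure D5:**
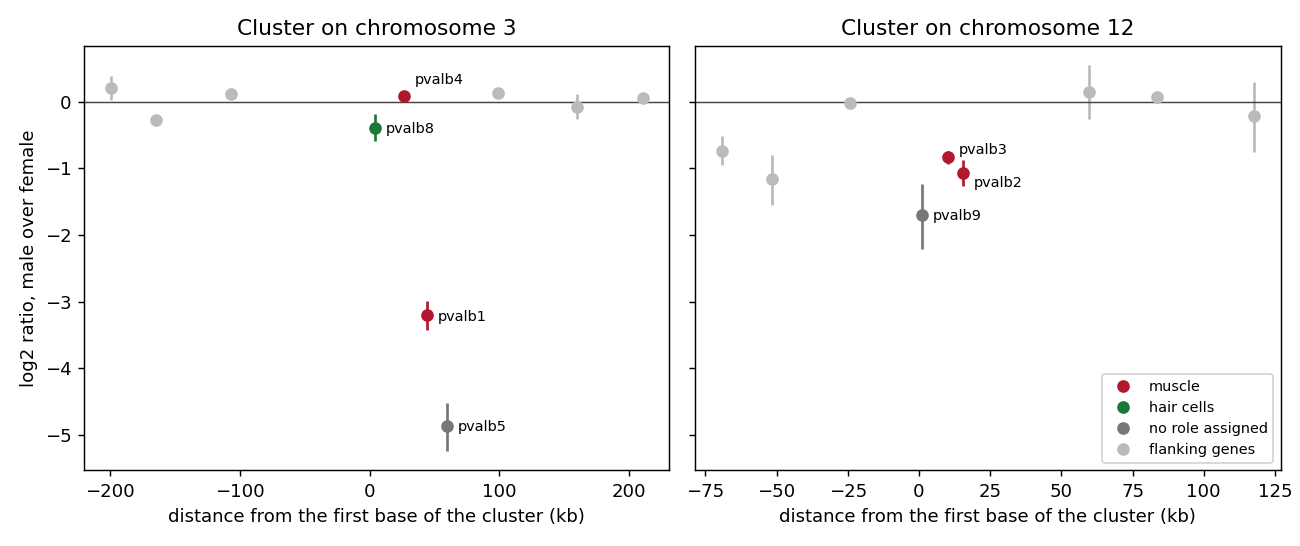
Log2 ratio of the male over the female library, with 95% counting intervals, against distance from the first base of the chromosome 3 cluster (left) and the chromosome 12 cluster (right), for parvalbumin genes (coloured by known role) and the 3 nearest measured genes on each side (grey). On chromosome 3 pvalb1 and pvalb5 stand at -3.20 and -4.86 while pvalb4 and the flanking genes lie near 0.

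Other fast muscle genes leaned the opposite way to pvalb1. Of 41 measured genes on a list of fast muscle contraction and energy genes, 7 were called higher and 2 lower in the male library, and 33 lay above 0. Their median log2 ratio was 0.36, against -0.00 over all 14756 measured genes. Of those 14756 genes, 1.06% were called higher and 2.70% lower in the male library, shares that apply beside each list count below. The muscle calcium pump gene atp2a1, which returns calcium to the sarcoplasmic reticulum, had 3653 reads in the male pool and 1069 in the female pool (1.86, interval 1.76 to 1.96). The fast troponin gene tnni2a.1 stood at 1.63 (interval 1.49 to 1.76) and the smoothelin-like gene smtnl1 at 1.56 (interval 1.26 to 1.88). On the other side was the fast myosin gene myhc4, with 2074 reads in the male pool and 5292 in the female pool (-1.26, interval -1.34 to -1.19). The other gene called lower was tnni2a.3, with 355 reads in the male pool and 844 in the female pool (-1.16, interval -1.34 to -0.98). The division of reads among the tnni2a genes was not tested. Slow and cardiac muscle genes had 2 of 17 measured members called higher in the male library and 0 lower, with a median of 0.46. The 2 were myl10 (1.28, interval 1.08 to 1.48) and zgc:153662, now tnni1c (1.06, interval 0.70 to 1.42).

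Markers that define fast muscle were well covered in both libraries, apart from tnni2a.4. The creatine kinase gene ckma had 6676 reads in the male pool and 6966 in the female pool (0.03, interval -0.02 to 0.08). The myosin light chain gene mylz2, now mylpfa, had 5416 in the male pool and 4499 in the female pool (0.36), and actc1b 6309 in the male pool and 5340 in the female pool (0.33). The troponin gene tnni2a.4 was under the minimum, with 37 reads in the male pool and 18 in the female pool. Summed over the list, fast muscle genes took 1246 CPM in the male pool and 1029 CPM in the female pool. Of its 61 genes, 16 were listed at 0 in both libraries, among them tpma and eno3. They lie on chromosomes 7 and 23, respectively, where 95.6% and 61.7% of genes were listed at 0. Such a listed 0 does not show that a gene is silent. The measured fast muscle genes did not share the ratio of pvalb1, and their part in the parvalbumin values was not tested.

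The median of Purkinje cell genes was close to level, like pvalb7. Of 14 measured genes on that list, 0 were called in either direction, and the median was -0.03. Of the 14, 9 lay below 0 and 5 above, with ratios from -0.43 to 0.10. So short a list would hold few calls at the shares over all measured genes (1.06% higher and 2.70% lower). The Purkinje gene ca8 had 6544 reads in the male pool and 8304 in the female pool (-0.25, interval -0.30 to -0.21). The aldolase gene aldoca, which in fish cerebellum marks Purkinje cells, had 16720 in the male pool and 19502 in the female pool (-0.13, interval -0.16 to -0.10). The calcium channel gene cacna1ab, the member with the highest mean, stood at 0.03, and at -0.01 with scaling by library totals. The inositol trisphosphate receptor gene itpr1b (in the table as itpr1) was listed at 0 in both libraries. The list summed to 2434 CPM in the male pool and 2460 CPM in the female pool.

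Genes of inhibitory neurons had a median of 0.09. Of 27 measured members, 2 were called higher and 0 lower in the male library (1.06% and 2.70% of all measured genes). They were lhx6, with 1164 reads in the male pool and 502 in the female pool, and lhx8a, with 332 male and 153 female reads. Both encode transcription factors of the ventral telencephalon. The GABA-synthesis gene gad1b was level, with 29374 reads in the male pool and 32040 in the female pool (-0.04, interval -0.06 to -0.01). Neuronal markers were level too, with snap25a at -0.05, elavl4 at -0.05 and slc17a7, now slc17a7a, at 0.06. The gene LOC100329827, now gad1a, stood higher than gad1b at 0.37 (interval 0.32 to 0.41). Of the 27 measured members of the list 10 lay below 0 and 17 above, among them dlx2a (0.69, interval 0.55 to 0.84).

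Of 32 matched hair cell genes, 14 were measured and 11 were listed at 0 in both libraries, among them the hair cell markers otofb and tmc2b. The table lists a 0 for 95.6% of genes on chromosome 7 and 61.7% on chromosome 23, against 24.4% to 51.8% on each other chromosome, so a listed 0 does not show that a gene is silent. The most read member was otof, now otofa, with 14332 reads in the male pool and 14896 in the female pool (0.03, interval -0.00 to 0.07), followed by gpr98 (-0.07). The list summed to 488 CPM in the male pool and 481 CPM in the female pool, with a median of -0.01, or 0.02 with the expression trend removed. Of the measured genes 2 were called lower in the male library and 0 higher (2.70% and 1.06% of all measured genes). They were the S100 genes s100s, with 140 reads in the male pool and 644 in the female pool (-2.11, interval -2.39 to -1.85), and s100t, with 30 in the male pool and 111 in the female pool (-1.78, interval -2.43 to -1.21). The hair cell myosin gene myo6b had 431 reads in the male pool and 615 in the female pool (-0.42, interval -0.61 to -0.24). Members went both ways, with 9 of the 14 measured genes below 0 and 5 above, among them pcdh15b (0.51, interval 0.41 to 0.61). Whether the pvalb8 reads came from hair cells was not tested.

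Other EF-hand calcium-binding genes, 87 by name and 65 measured, had a median of -0.02. Of these, 2 were called higher and 4 lower in the male library (1.06% and 2.70% of all measured genes). The recoverin genes zgc:73075, now rcvrn3 (2.06, interval 1.83 to 2.30), and rcv1, now rcvrn2 (2.01, interval 1.65 to 2.40), which encode calcium sensors of photoreceptors, were on the higher side. On the lower side were s100s, s100t, icn2 (-1.15, interval -1.35 to -0.96) and s100a1, with 35 reads in the male pool and 150 in the female pool for s100a1 (log2 interval -2.59 to -1.47). The EF-hand list summed to 7732 CPM in the male pool and 7767 CPM in the female pool.

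Yolk and liver genes were lower in the male library, like pvalb5 and pvalb1. Of 20 measured members of that list, 19 were called lower in the male library and 0 higher (2.70% and 1.06% of all measured genes). The median was -3.65. The list summed to 223 CPM in the male pool and 2724 CPM in the female pool, and c3a.1, hp and f2 were listed at 0 in both. Yolk precursor genes were far lower in the male library, with vtg2 at -10.44, vtg4 at -9.79, vtg7 at -9.09 and vtg5 at -8.69. Genes of epithelium and ionocytes went both ways, with 6 of 23 measured members called higher and 3 lower in the male library. Their median of -0.23 turned to 0.26 without a minimum level. They summed to 1011 CPM in the male pool and 703 CPM in the female pool, with cdh1 listed at 0 in both. The higher ones were led by zgc:136902, now krt93 (7.73), foxi3b (3.66), slc4a1b (3.45) and atp1a1a.4 (2.44). The 3 called lower were agr2 (-2.30, interval -2.89 to -1.78), cldne (-2.16, interval -2.40 to -1.94) and epcam (-1.30, interval -1.56 to -1.04). The part of liver, yolk or epithelial RNA in the parvalbumin values was not tested.

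Genes whose reads were most like those of a parvalbumin gene in both libraries were sought among measured genes with established symbols, by distance in the plane of log2 scaled counts over the 2 libraries. For pvalb4 the nearest were znf703 (distance 0.0074), rqcd1 (0.0094) and dhx37 (0.017). For pvalb7 they were lgmn (0.017), oxct1a (0.020) and tbcb (0.022). The same was done for pvalb5 and pvalb1 after their values were seen. Nearest to pvalb5 were vtg3 (0.472), with 92 reads in the male pool and 1860 in the female pool, then c9 (0.803) and fgg (0.864). Nearest to pvalb1 were serpina1l (0.281), with 213 reads in the male pool and 2166 in the female pool, then fgb (0.392) and cldnh (0.470). The distances were larger for pvalb5 and pvalb1 than for pvalb4 and pvalb7. With 2 libraries, such nearness states only a similar level and ratio, from the same counts that were in view when the family was picked. A shared source of these reads was not tested.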

How the data were processed

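RNA of whole brain was sequenced in 1 male and 1 female library, each from a pool of 5 fish, and groups follow the sex in the labels. Per the labels' protocols, reads were single and 51 bp long. Per the submitters' processing notes, the tools were TopHat 1.4.1 and DESeq and the build was Zv9, their roles being unstated. The read counter and its annotation were not given in the sources used here. Per the file headers the deposited table gives raw counts, which are estimated counts, since few values above 0 were whole within 0.001 (1.56% for males, 1.92% for females). The deposited normalized counts are on a log2 scale, and equal the log2 of the raw count over a factor of 0.971 for males and 1.03 for females.

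Estimated counts were summed over rows of the same Entrez ID and rounded. They were scaled by median-of-ratios size factors (0.970 male, 1.03 female). The log2 ratio was taken after adding 0.5, and its 95% interval came from the exact Clopper-Pearson limits on the reads' male share. The interval of a difference between log2 ratios was not exact. It used a normal approximation, with the counting variances of both ratios added. Amplified reads without molecular identifiers are not independent, so intervals cover counting error only. No p-value was computed. Roles and the 8 gene lists were written from general knowledge, and the members and lists were chosen with earlier results of these data known. List genes were matched by current RefSeq symbol, table symbol or synonym, and current symbols exist for 22112 of 27095 genes (81.6%). Named list genes are up to 4 called genes per list, ranked by how far the interval end nearer to equality lies from it, or the 2 with the highest mean where none was called, and the defining markers. A gene that this rule names is not reported here. Flanking genes, icn2, otof, gpr98, sums without a member and genes named as listed at 0 were chosen after values were seen. So were gad1a, dlx2a, pcdh15b, agr2, cldne, epcam and the troponin gene called lower, which the naming rule did not pick. Protein identity between members was planned and not computed.

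The calculation was tested on simulated counts with counting noise alone. All 50 of 50 genes were recovered at each of 3-fold, 4-fold, 8-fold and 16-fold, and 0 of 14556 unchanged genes were called. Changes smaller than 3-fold and differences between fish or libraries were not simulated. The check therefore gives no rate of wrong calls for these data. Alternatives were an added count of 1, library totals, TMM factors from edgeR, the deposited normalized values, higher or lower minimum levels and fold limits, a lowess trend on expression (fraction 0.3) removed, and sums without a member. Software was edgeR 4.0.16 in R 4.3.3, and matplotlib 3.10.9, statsmodels 0.14.6, scipy 1.17.1, pandas 2.3.3 and numpy 2.4.6 in Python 3.11.15.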

Additional observations from a re-analysis of the deposited data

How the results depend on the processing

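No paired analysis was possible because each sex has 1 library, and for the same reason no library could be left out. Under library totals, TMM factors, an added count of 1, the deposited normalized values or no minimum level, 4 parvalbumin genes were called lower and 0 higher in the male library, as reported. At 4-fold 2 were called lower. Over all genes, the counts called higher and lower in the male library were 319 and 656 without a minimum, 59 and 112 at 5 CPM, 413 and 899 at 1.5-fold, and 27 and 182 at 4-fold.

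The summed ratio of the neuronal genes was -0.093 under library totals and -0.11 with the trend removed, and its sign turned to 0.037 when pvalb6 stood alone. The summed muscle ratio was -0.66 without pvalb3, -1.37 without pvalb4 and, in an alternative added after seeing the data, -0.38 without pvalb1. The difference between muscle and neuronal sums was -0.58 with the trend removed, -0.76 with pvalb6 alone, -1.32 without pvalb4 and -0.33 without pvalb1. The ratio of pvalb5 ranged from -4.90 to -4.80 and that of pvalb1 from -3.25 to -3.14 over the alternatives. Calls in the other lists moved beyond 1.5 times in 20 of 144 recounts. For fast muscle genes higher in the male library, reported as 7, the counts were 11 with the trend removed, 4 at 5 CPM, 16 at 1.5-fold and 0 at 4-fold. For slow and cardiac genes, reported as 2, they were 4, 1, 8 and 0.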
